A study of Caenorhabditis elegans with 2 samples.

Results

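The peaks described here are 595 LIN-40 ChIP-seq summits that lay in the middle 50% of an autosome, close to the start of protein-coding genes of 1 strand only. They make up 19.4% of the 3066 rows of the authors' reproducible peak list, 25.3% of its 2351 autosomal rows and 40.9% of its 1455 rows in autosome centres. A summit was taken when it fell within 1000 bp upstream to 200 bp downstream of a transcript start, over 300 bp from every tRNA gene, with no protein-coding gene of the opposite strand sharing that window. The choice used position and annotation and no signal beyond presence in the list. The study immunoprecipitated chromatin from whole hermaphrodite Caenorhabditis elegans of strain OP485, which carries LIN-40 with a C-terminal GFP-FLAG tag, using an antibody against GFP. Animals were young adults, 57.25 h after synchronization as starved L1 larvae, and chromatin was broken by sonication. The 2 biological replicates, numbered 3 and 4, form a single group. All cell types of the animal, germline and soma, are mixed in each sample, and no untagged or input sample was analysed here. Annotation came from Ensembl release 115 on WBcel235, the same assembly as ce11.

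LIN-40 is a worm homologue of the vertebrate MTA proteins, subunits of the NuRD complex. NuRD joins an ATP-dependent nucleosome remodeller to histone deacetylases and is known mainly as a repressor, although ChIP often finds it at active promoters. Worm genes are compact, many lie close behind another gene of the same strand, and many mRNAs receive a trans-spliced leader, so that annotated starts can lie downstream of the site where transcription begins.

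To show what lies under the summits, the sequence 75 bp either side is given for 9 strong peaks whose window met no annotated exon, read 5′ to 3′ on the strand of the gene, from the ce11 reference. Capitals mark GAGAGA, CTGCGTCT and CACGTG on either strand. The first 3 were chosen for GAGAGA, the next 2 for CTGCGTCT, the next 2 for CACGTG and the last 2 because the 201 bp around the summit held none of them.
rpl-3, chrIII:3867483-3867633, + strand: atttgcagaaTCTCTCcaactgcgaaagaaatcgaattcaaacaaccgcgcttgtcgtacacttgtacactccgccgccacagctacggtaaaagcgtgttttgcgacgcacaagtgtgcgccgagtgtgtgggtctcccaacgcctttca
cbp-1, chrIII:9765544-9765694, + strand: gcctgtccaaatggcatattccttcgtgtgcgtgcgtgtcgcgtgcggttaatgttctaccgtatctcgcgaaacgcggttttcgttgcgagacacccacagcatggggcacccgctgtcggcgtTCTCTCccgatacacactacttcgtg
sec-61.G, chrV:10897283-10897433, - strand: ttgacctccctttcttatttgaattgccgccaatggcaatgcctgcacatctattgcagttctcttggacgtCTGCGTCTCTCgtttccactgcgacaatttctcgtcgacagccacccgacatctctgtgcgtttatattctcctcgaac
C34C12.8, chrIII:3460184-3460334, + strand: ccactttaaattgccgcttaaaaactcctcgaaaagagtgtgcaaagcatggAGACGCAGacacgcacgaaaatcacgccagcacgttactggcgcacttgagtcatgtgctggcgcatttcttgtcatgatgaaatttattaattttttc
zfp-1, chrIII:8802015-8802165, + strand: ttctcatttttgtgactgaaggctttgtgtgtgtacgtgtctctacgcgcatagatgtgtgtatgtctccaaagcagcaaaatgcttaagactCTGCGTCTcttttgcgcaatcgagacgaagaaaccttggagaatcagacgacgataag
tos-1, chrV:9344222-9344372, - strand: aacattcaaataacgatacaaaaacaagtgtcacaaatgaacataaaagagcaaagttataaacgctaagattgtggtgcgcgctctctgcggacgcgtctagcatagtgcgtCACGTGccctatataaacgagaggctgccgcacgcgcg
F21C10.10, chrV:9095729-9095879, + strand: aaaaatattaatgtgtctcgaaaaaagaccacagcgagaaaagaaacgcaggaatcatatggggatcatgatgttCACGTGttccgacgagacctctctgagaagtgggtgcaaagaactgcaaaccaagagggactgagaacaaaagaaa
cdc-48.1, chrII:10563498-10563648, - strand: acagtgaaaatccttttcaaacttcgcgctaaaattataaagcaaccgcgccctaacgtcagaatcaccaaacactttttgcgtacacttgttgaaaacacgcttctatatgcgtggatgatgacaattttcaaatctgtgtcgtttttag
rpl-35, chrIII:7854604-7854754, + strand: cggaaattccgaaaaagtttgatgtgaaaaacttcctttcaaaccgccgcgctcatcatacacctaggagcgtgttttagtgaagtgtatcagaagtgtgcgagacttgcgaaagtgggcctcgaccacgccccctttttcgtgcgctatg

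In sec-61.G the core string CTGCGTCT ran straight into TCTCTC. Each of the other windows with a match held a single string in the 151 bp shown. In the 201 bp used for the shares below, zfp-1, tos-1 and F21C10.10 also held GAGAGA, and F21C10.10 held CTGCGTCT as well. The strong rpl-35 and cdc-48.1 windows held none, so a match was not a shared feature of the strongest peaks.

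GAGAGA, or its complement TCTCTC, was found within 100 bp of the summit in 255 of the 595 peaks (42.9%, exact 95% interval 38.8 to 46.9). Windows 1500 bp upstream and downstream of the summit, kept where no peak overlapped them, held it in 13.5% and 11.7%. In 6862 one-strand centre promoters without a peak, read at the median summit position, the share was 13.0%. Among other peak classes it was 40.8% at one-strand promoters of the arms (n = 333), 43.2% at one-strand promoters of X (n = 271) and 22.3% at centre promoters shared by both strands (n = 242). The autosomes ranged from 35.1% on chromosome II to 47.2% on chromosome III. The intervals cover counting error only, and differences between classes of peaks were not tested, since peaks of a single pooled list are not replicates.

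The repeat was more often read as TCTCTC than as GAGAGA along the gene. TCTCTC stood on the gene's strand in 30.4% of peaks and GAGAGA in 17.3%, and TCTCTC was the more frequent on 5 of 5 autosomes. Promoters without a peak leaned the same way, at 9.28% and 4.26%, whereas centre promoters shared by both strands had 11.6% and 12.4%. The skew was thus also present where no peak was called. Of peaks with TCTCTC 61.3% had a match within 50 bp of the summit, and of those with GAGAGA 56.3%. An even spread over the 100 bp searched would give about 50% for a single match per window. It would give more where a window held several, as the nearest was counted, so no clustering is read from these shares. In 20 bp steps TCTCTC was most frequent at -40 to -20 bp from the summit, in 5.71% of peaks, and GAGAGA at 60 to 80 bp, in 3.36%. Either reading was most frequent at 60 to 80 bp, in 7.73%.

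CTGCGTCT was present in 100 peaks (16.8%, exact 95% interval 13.9 to 20.1), against 0.947% and 1.08% of the flanks and 1.40% of promoters without a peak. The share was 16.8% on the arms, 10.3% on X and 6.20% at centre promoters of both strands. It stood on the gene's strand in 62 peaks and on the other strand in 38. Promoters without a peak leaned the same way, at 0.90% and 0.54%, so this skew too was present where no peak was called. X peaks were even, at 5.54% on each strand, and centre promoters of both strands had 2.89% and 3.31%. Only 23 peaks held a GAGAGA match that shared bases with a CTGCGTCT match, and 40.5% of peaks held GAGAGA free of such overlap. The E-box CACGTG, a site type read by Myc and Max family proteins, was present in 10.1% of peaks, against 2.84% and 3.42% of flanks and 2.83% of promoters without a peak. Its share was 9.91% on the arms, 8.49% on X and 6.61% at centre promoters of both strands. In all, 274 peaks (46.1%) held none of the 3 strings, 231 held 1 and 4 held all 3.

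**Figure D1:**
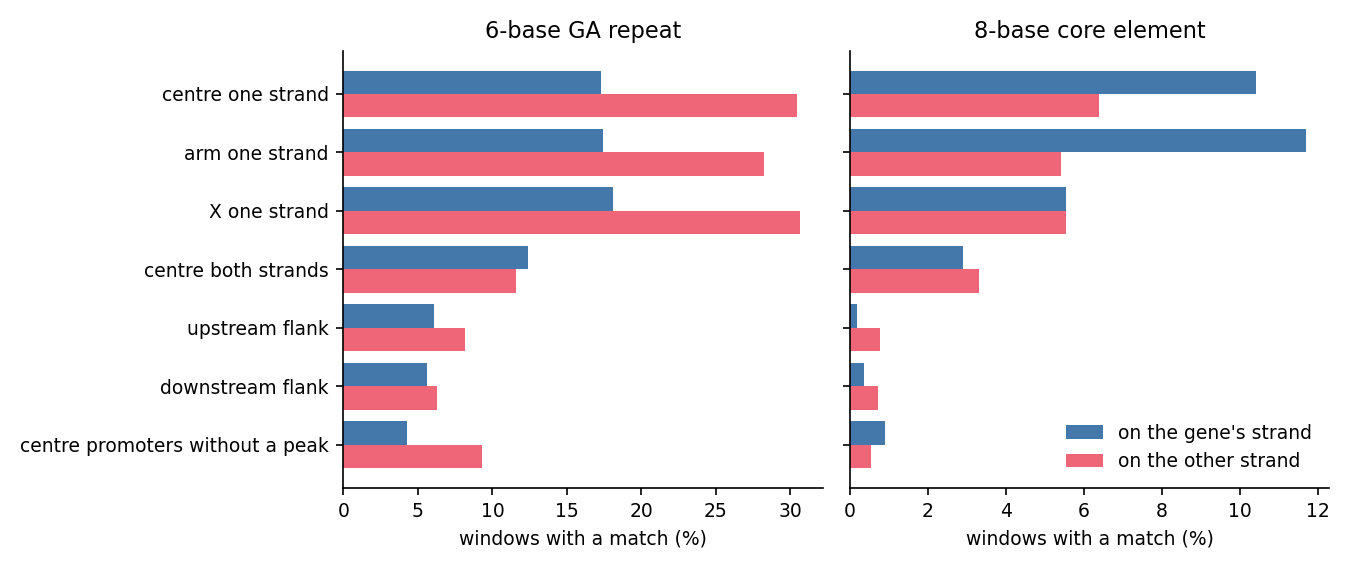
Share of windows (%, horizontal axis) with the 6-base GA repeat (left) and the 8-base core element (right), by class, on the gene's strand (blue) and the other strand (red). For the GA repeat the peaks of the centre stand at 17.3% and 30.4%, against 4.26% and 9.28% in centre promoters without a peak.

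Some of the other strings searched were rarer at the peaks than in promoters without a peak, and some were more frequent. TAATTA, a homeodomain-type site, was found in 5.21% of peaks, against 12.8% of promoters without a peak, 11.1% of arm peaks and 3.32% of X peaks. TATAAA was in 16.0% against 24.9% of promoters without a peak, and runs of 8 T, on either strand, in 11.3% against 20.4%. The GC-rich string CNCCGCCC was in 4.87% against 1.81%, TGACGTCA in 2.19% against 0.918% and AGGTCA in 7.23% against 5.33%. CNCCGCCC was more frequent at centre promoters of both strands, at 9.09%, and stood at 4.5% on the arms and 2.58% on X. Counting all 6-base strings with their complements, the largest excess over flanks was that of GAGAGA, at 42.9% against 12.6%. The third in that order was CGTCTC, at 29.6% against 6.18%, which overlaps the end of the 8-base element.

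The summits were rich in G and C. Mean GC was 41.9% ± 6.95 (SD over 595 windows of 201 bp), against 36.03% and 36.6% in the flanks and 33.5% in promoters without a peak. In 20 bp steps it peaked at 46.6% just downstream of the summit. The richness was not particular to these peaks. Mean GC was 42.45% at arm peaks, 45.41% at X peaks and 40.99% at centre promoters of both strands with a peak. CpG occurred at 1.15 times the number expected from base content, and at 0.98 times in promoters without a peak. This CpG ratio was higher at arm peaks (1.264) and at centre peaks of both strands (1.353), and lower at X peaks (1.043).

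**Figure D2:**
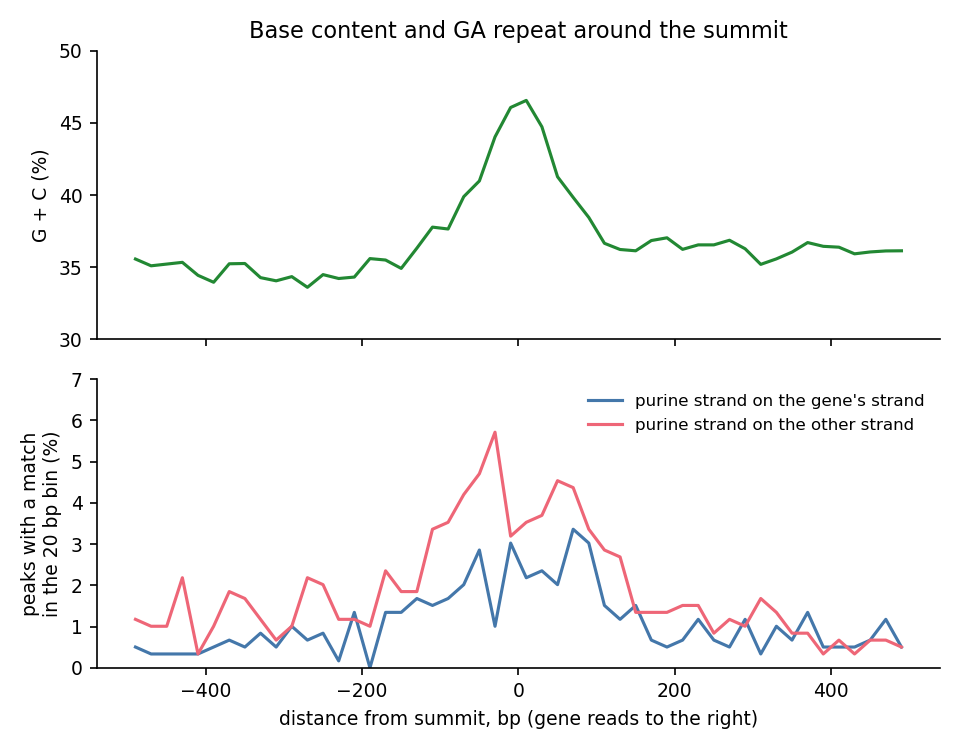
GC content (%, upper panel) and share of the 595 peaks with a GA repeat match in each 20 bp bin (%, lower panel) by distance from the summit in bp, with the gene reading to the right. GC reaches 46.6% beside the summit, and the repeat read on the other strand reaches 5.71% of peaks 20 to 40 bp upstream of it.

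Most summits lay a short way upstream of the annotated start. The median position was -258 bp (quartiles -520 and -128.5), and 538 of 595 (90.4%) were upstream. The rule's window reaches 1000 bp upstream and only 200 bp downstream, so a majority upstream was set in advance. The densest stretch ran from -250 bp to just short of -100 bp, with 164 peaks. Arm peaks had a median of -226 bp and X peaks of -268 bp, while centre promoters of both strands, whose starts lie closer together by construction, had -156.5 bp. On the autosomes the median ran from -213 bp on V to -301 bp on II. The 57 summits at or downstream of the start had a median signal of 128, against 164 to 178 in the other position classes.

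**Figure D3:**
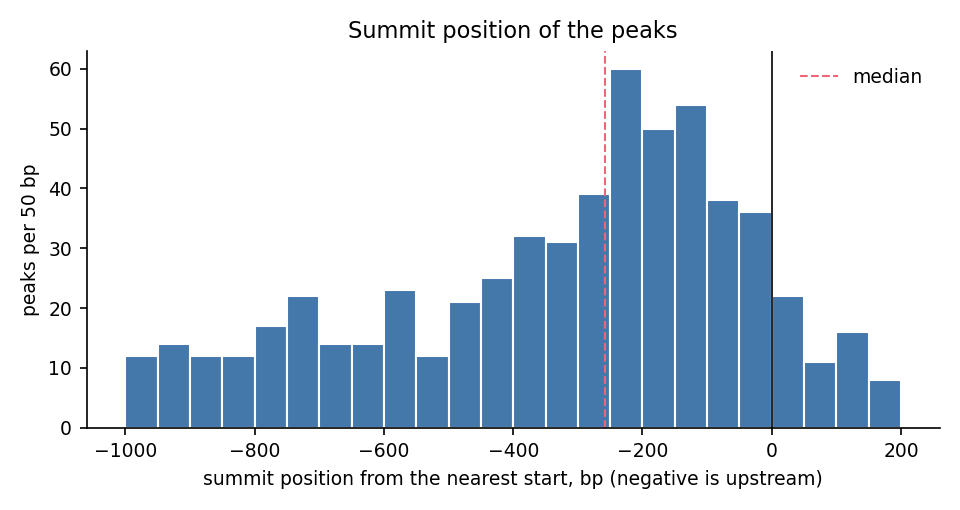
Number of the 595 peaks per 50 bp (vertical axis) by summit position from the nearest start in bp, negative upstream. The dashed line is the median, -258 bp.

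Of the 595 summits, 574 (96.5%) lay in the window of 1 gene and 21 in that of 2. The nearest start was the gene's outermost in 485 and an internal one in 110. Between genes lay 409 summits (68.7%), 86 were in an intron and 58 in an exon of the gene itself. For the 485 peaks at an outermost start, the next gene upstream was on the same strand in 68.04%, against 70.1% at centre promoters without a peak, and the median gap to it was 1394 against 1478.5 bp. Over all 595 peaks the gap was 1573 bp, which counts internal starts from inside their gene. Same-strand genes ending within 500 bp upstream were seen at 22.5% of the outermost-start peaks and at 28.2% of those promoters.

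The peaks were denser in the centres than one-strand promoter peaks in the arms on all 5 autosomes. Density was highest on III, at 17.8 peaks per Mb of centre against 9.43 per Mb of arm, and lowest on IV, at 11.9 against 8.12. Chromosome V had 12.2 and 5.54, II had 14.9 and 9.95, and I had 16.7 and 8.36. Protein-coding genes were also more numerous in the centres than in the arms on all 5 autosomes, and this was not divided out. On IV there were 1949 genes in the centre and 1332 in the arms, about the same proportion as the peak densities. On I, II, III and V the gene counts differed less than the peak densities, with 2624 and 2370 genes on V. Peaks per gene were not tested.

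Signal is the authors' value per peak, on a scale the files do not define. It ran from 100 to 1765 with a median of 164 (quartiles 122.7 and 235.3). The replicates' own medians were 75.8 in replicate 3 and 90.9 in replicate 4. Arm peaks had a median of 168, X peaks of 169.8 and centre promoters of both strands of 198, and the last exceeded the one-strand centre peaks on 5 of 5 autosomes. The gap was smallest on I, 182 against 171, and largest on IV, 197 against 154. Of the 50 strongest rows of the whole list 9 were one-strand centre peaks.

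**Figure D4:**
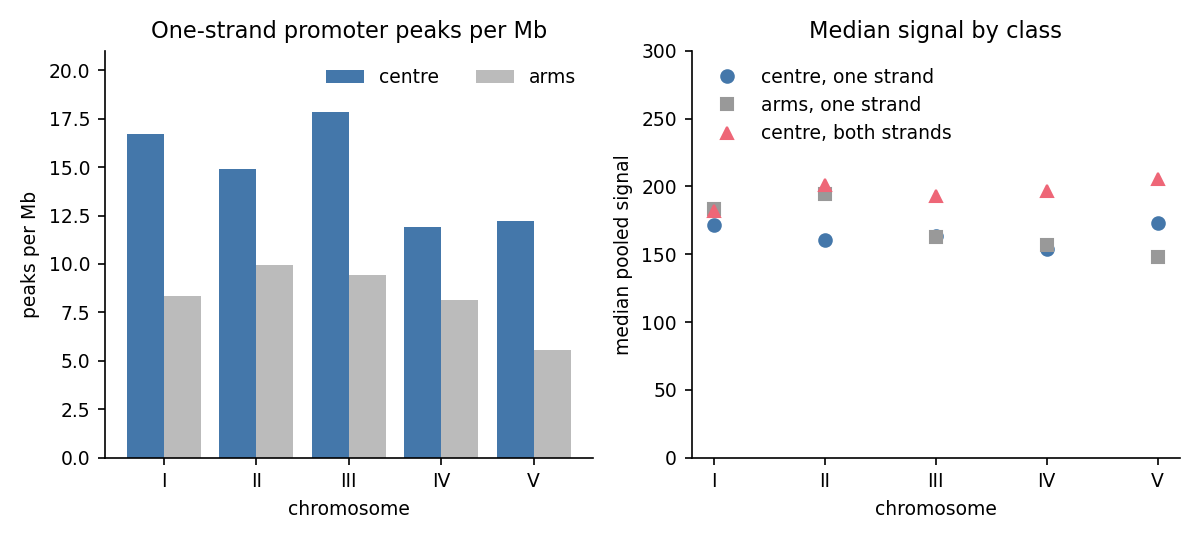
Left, one-strand promoter peaks per Mb of chromosome centre (blue) and arm (grey). Right, median pooled signal on each autosome for one-strand peaks of the centre and arms and for centre peaks at promoters of both strands; the last lies above the one-strand centre peaks on all 5.

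Agreement between the replicates was partial. Each replicate's own list, cut to its 3066 strongest regions, met 473 of the 595 peaks in both (79.5%, exact 95% interval 76.0 to 82.7), against 86.4% for centre peaks at promoters of both strands. The pooled list contains both replicates, so this is not an independent check. Over 590 peaks with a region in both, Spearman's rho was 0.73 and Pearson's r of log2 signal 0.79. Replicate 4 was the higher in 449 and replicate 3 in 141, with a median ratio of 1.17. The 2 values summed to within 10% of the pooled signal at 546 peaks.

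**Figure D5:**
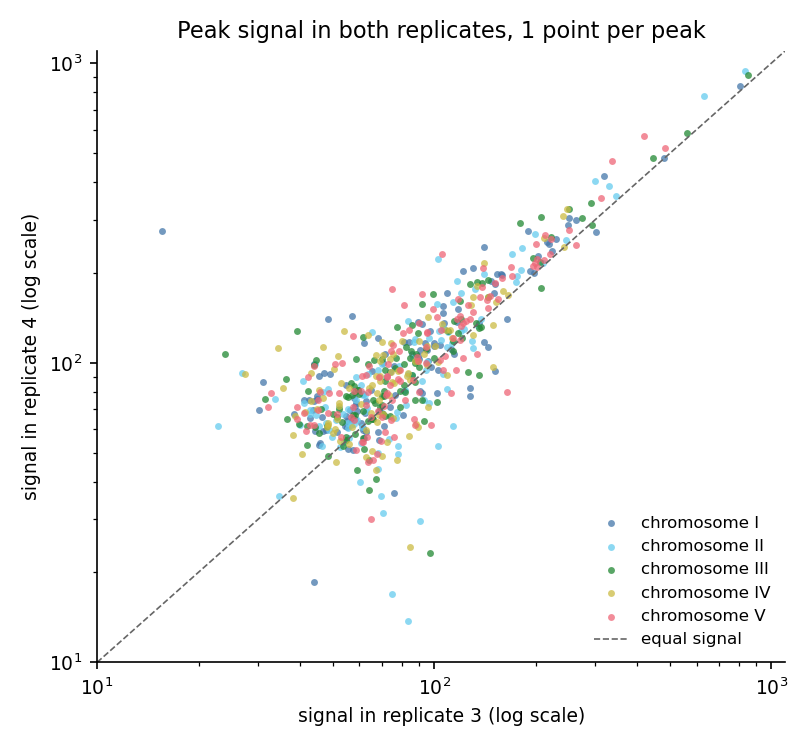
Signal of each peak in replicate 3 (horizontal) and replicate 4 (vertical), both on log scales, coloured by chromosome; the dashed line marks equal signal. More points lie above it, with 449 higher in replicate 4.

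The extremes of the ratio were tent-5, a terminal nucleotidyltransferase gene, with 15.6 in replicate 3 and 274 in replicate 4, hlh-11 with 24.0 and 107, and mnk-1, a kinase gene, with 26.9 and 92.7. On the other side were ssup-72 with 83.8 and 13.8, a peak at swsn-7, a SWI/SNF subunit gene, with 74.9 and 16.9, and R02F2.1 with 97.1 and 23.2. At tent-5, whose window held 4 summits, the replicate 4 value exceeded the pooled signal of 110. A stronger summit of the same interval, at 466 pooled, had the same replicate 4 value of 274. A single region of replicate 4 was thus matched to both, and the ratio at the weaker summit does not compare like with like. The mismatch was the opposite at ssup-72, swsn-7 and hlh-11, whose values summed to less than their pooled signals of 185.6, 170.4 and 202.

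The strongest peak stood 296 bp upstream of rpl-3, a large-subunit ribosomal protein gene, with 854 in replicate 3, 914 in replicate 4 and 1765 pooled. The strongest on II, at 1747 (833 and 938), was named by H41C03.3 and lay within 300 bp of sls-2.1, an SL2 spliced leader RNA gene. On I the strongest was at egg-5, a gene of the oocyte-to-embryo transition, with 1633 (808 and 838), and it lay beside another such RNA gene, sls-2.4. Each of these had both replicates high.
The next were cdc-48.1, which encodes an AAA unfoldase, at 1398 (631 and 774), and rpl-35 at 1143 (561 and 583). The histone H4 gene his-37 led chromosome V with 996 (483 and 521), followed by tos-1 with 978 (418 and 571). The acetyltransferase gene cbp-1, the CBP and p300 homologue, had 924 (445 and 483) and the translocon subunit gene sec-61.G had 814 (337 and 471). Chromosome IV had no peak of this height: its strongest was sqd-1, an RNA-binding protein gene, at 565 (247 and 326). Others among the 25 strongest were second summits at egg-5 and H41C03.3, F02E9.5 (737), the J-domain gene dnj-9 (706), the zinc finger gene ztf-7 (666), sor-1 (626), lin-9 (583), C34C12.8 (577), zfp-1 (575), F59C6.18 (572), the polybromo gene pbrm-1 (559.6), the initiation factor gene eif-3.C (556), the autophagy gene lgg-2 (553) and the cytochrome oxidase gene cox-5B (533).
The 13 peaks within 300 bp of an snRNA gene, a biotype that takes in the spliced leader genes as annotated, had a median of 416. They are not separate loci: egg-5, H41C03.3, F38E11.9, snr-4 and eif-2Bgamma gave 2 summits each, all counted in this median. The 21 beside a snoRNA gene had a median of 216. The summit in such a peak cannot be assigned to the RNA gene or to the protein-coding gene.

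The 595 summits fell in 563 authors' intervals, 30 of which held 2 of them and 1 held 3. In the 30, the summits were 199 to 228 bp apart, with a median of 203 bp. Whether the caller sets a least spacing is not known here. The widest interval was 4540 bp, at kin-14 and mstr-1. The windows of zfp-1, the AF10 homologue gene, and tent-5 held 4 peaks each, at 575, 404, 255 and 101 for zfp-1. Those of lgg-2, jun-1, nhr-49 and mnk-1 held 3.

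Of 9597 protein-coding genes with a start in an autosome centre, 553 had one of the peaks in their window, a share of 5.76%. Of these, 498 had 1 peak and 55 had more. Lists of genes were matched by name pattern, a gene can be in several, and 143 of the 553 were in any. Some listed genes, among them cox-6A, snr-4, mrpl-23 and sre-23, had their peak within 300 bp of an snRNA or snoRNA gene. They are counted, although such a peak cannot be assigned to either gene. The counts below are read against 5.76% as a description, and none was tested. The 32 lists were chosen with earlier results of these data known, and their intervals were not corrected for the number of lists. Whether an interval lies above 5.76% therefore only orders the lists for description and does not show enrichment.

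Ribosomal protein genes had the highest count: 15 of 56 (26.8%, exact 95% interval 15.8 to 40.3), led by rpl-3, rpl-35 and rpl-24.2 (468, with 217 and 253), all 15 between 122.7 and 1765. Another 23 had a listed peak that was not a one-strand centre peak. Over all 9597 centre genes, 1031 (10.7%) had any listed peak, the 553 included. The list of enzymes of glycolysis and the citric acid cycle had 7 of 27 (25.9%, interval 11.1 to 46.3), with cts-1, citrate synthase, at 236, fum-1, fumarase, at 185, and pyk-1, pyruvate kinase, at 166. The 7 include pck-2 (141) and pyc-1 (122), whose enzymes belong to neither pathway in the strict sense. DREAM and synMuv B genes had 3 of 10 (30%, interval 6.67 to 65.3): lin-9 at 583, lin-13 at 179 and lin-52 at 122.5. These 3 intervals lie above 5.76%, the last by little, since the list is short.

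In the next group the interval lay above 5.76% for ubiquitin pathway, chromatin and secretory pathway genes and included it for the others. Ubiquitin pathway genes had 9 of 47, with cdc-48.1 (1398), usp-4 (281.5) and the conjugating enzyme gene ubc-25 (242). Chromatin remodelling and modification genes had 12 of 66, led by cbp-1 (924), pbrm-1 (559.6) and set-4 (426). Among them the NuRD-related dcp-66 and mep-1 had 138 and 111. Respiratory chain genes had 4 of 28, led by cox-5B (533), cox-6A (416) and cyc-1 (320.3), and vacuolar ATPase genes 2 of 14, vha-13 (258) and vha-9 (152). The respiratory chain pattern missed nduf-11 (243) and nduf-7 (184.5), complex I genes by name that also had a peak. Its count and interval thus hold for the matched names only. Secretory pathway genes had 10 of 76, led by sec-61.G (814), vps-60 (410.1) and vps-22 (335.5). The chaperone list had 7 of 55, led by dnj-9 (706), tomm-20 (482) and both timm-17B.1 and tin-9.1 (213). It takes in mitochondrial import genes, among them tomm-20 and timm-17B.1, which do not encode chaperones. Translation factors had 4 of 33, led by eif-3.C (556), and proteasome genes 3 of 27, led by rpn-11 (359). Cytoskeleton genes had 8 of 64, but 3 of these, zyg-11 (199.7), mel-26 and mel-32, were caught by name alone: mel-32 encodes a serine hydroxymethyltransferase.

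In the following lists the interval included 5.76%. Mitochondrial ribosomal proteins had 3 of 47, splicing genes 4 of 63, mRNA export and decay genes 4 of 70, germline and P granule genes 5 of 81, detoxification genes 6 of 106, cuticle collagens 8 of 99, nuclear hormone receptors 9 of 96, neuronal genes 4 of 47 and kinases, phosphatases and small GTPases 6 of 52. The strongest of these were the Sm protein gene snr-4 (451), ntl-2, a subunit gene of the deadenylase complex (364), kin-14 (309.8), nhr-49, a regulator of fat metabolism (277.5), the BRCA1 homologue gene brc-1 (244.5), the synaptobrevin gene snb-1 (235), mrpl-23 (220.2), col-63 (198) and gst-9 (152). The single hits were act-2 among 20 muscle genes, vit-6, a yolk protein gene, among 17 intestinal genes, ceh-20 among 48 homeobox genes, his-37 among 57 histone genes and rpac-19 among 41 polymerase and Mediator genes. Replication and cell cycle genes had 3 of 74, one of which, cdc-48.1, is in the list by its name.

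Other lists had few or none. Chemoreceptor genes had 3 of 493 (0.608%, interval 0.126 to 1.77), with sre-23 at 214. Innate immunity effectors had 2 of 160, hpo-11 and hpo-10, both caught by the hpo prefix. F-box and MATH genes had 0 of 63, which allows up to 5.69% by the exact interval, neuropeptides and insulins 0 of 59, up to 6.06%, and aminoacyl-tRNA synthetases 0 of 21, up to 16.1%.

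Peaks with GAGAGA had a median signal of 158 and those without 167, and for CTGCGTCT the medians were 168 and 163. From the weakest to the strongest quartile of signal, GAGAGA was in 43.6%, 46.3%, 33.1% and 48.3% of peaks, with no steady trend. The shares for CTGCGTCT were 14.8%, 16.8%, 15.5% and 20.1%. The medians were further apart for CNCCGCCC, at 204 in 29 peaks with it and 163 without. Medians were lower with than without TGATAA (135 and 168), AGGTCA (136 and 165) and runs of 8 T (134 and 166). The string TGATAA, a site type of zinc finger factors of the ELT-2 family, was rarer in stronger peaks. Over quartiles of signal it was in 24.2% of the weakest, then in 17.4% and 15.5%, and in 9.40% of the strongest. GC content rose over the same quartiles from 39.98% to 44.5%, and its part in the TGATAA shares was not tested. Across the 595 peaks, signal and GC had a Spearman's rho of 0.26, and signal and interval width 0.11.

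The peaks nearest each edge of the rule, 1 on either side, were as follows. At the 25% edge of the chromosome, C34C12.8 at 25.1% was in, with 577, and inx-13 at 24.9% was out, with 137. At the 75% edge ttr-15 was in, with 180.3, and mfn-1 out, with 119.2. For the tRNA limit, vha-9 was the nearest in, 851 bp away, with 152, and cbl-1 the nearest out, 125 bp away, with 106, one of 14 summits left out so. At the upstream edge C32D5.8 was in at -1000 bp, with 204, and F48C1.3 out at -1002 bp, with 208. At the downstream edge srlf-1 was in at 195 bp, with 109, and lab-2 out at 223 bp, with 116.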

How the data were processed

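The authors deposited, per the labels, ENCODE-type region lists of 2 ChIP-seq replicates on ce11: a reproducible list over both replicates (IDR, a rank-based filter on agreement) and a list per replicate. Column 7 of each is a signal value deposited by the authors, and nothing in the sources used here names its scale, the software that aligned reads and called peaks, or the cutoff on IDR. Read depth is unknown. The ce10 lists were not used.

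Summits were placed by the deposited offset. Each peak took the replicate signal of the overlapping region with the nearest summit, so neighbouring peaks could share a region. Windows of 201 bp were read in the gene's direction from the reference of the same assembly, and 13 motifs were searched on both strands. Shares carry exact Clopper-Pearson 95% intervals, covering counting error only. With 1 group and a single pooled list, no test was run. Members and 32 gene lists, matched by name pattern, were chosen with earlier results of these data known. Named genes were the 25 strongest, up to 3 of the strongest per list, the strongest of each autosome, ratio extremes, genes with most peaks and those at the rule's edges. One of the 25 and its sequence are not reported here. Classification and motif strand were tested on simulated data. Python 3.11.15, NumPy 2.4.6, pandas 2.3.3, SciPy 1.17.1 and matplotlib 3.10.9 were used.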

Additional observations from a re-analysis of the deposited data

How the results depend on the processing

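Alternatives were run for the number of peaks, their median signal and position, replicate agreement, the gene share and the GAGAGA share. Comparisons with other classes, the other strings and the gene lists were not rerun. Keeping only the stronger 50% of the list left 297 peaks with a median signal of 235.8 and 2.98% of centre genes. Using 1 replicate alone gave medians of 78.6 to 91.4, on the scale of a single replicate, 581 to 598 peaks, positions of -267 to -259 bp, GAGAGA shares of 39.8% to 41.3% and a gene share of 5.78%. Agreement between replicates was 71.6% when summits had to lie within 100 bp and 43.5% with 50% of the regions per replicate. The gene share was 5.16% with outermost starts alone and 4.75% with a window of 500 bp upstream and 100 bp downstream, where GAGAGA stood at 38.1%. The GAGAGA share was 25.7% within 50 bp of the summit and 49.9% within 150 bp. The cause of these shifts was not tested beyond what each setting leaves out. The median position kept within -280 to -204 bp. No paired analysis was possible because the 2 replicates form a single group. Without depth, input or untagged samples, weak peaks and local background cannot be told apart.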
